A study of Mus musculus with 4 samples.

Results

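AMP-activated protein kinase (AMPK), the LKB1 kinase upstream of it and 3 AMPK-related kinases were followed in cultured mouse keratinocytes with and without Cre-driven deletion of the glucose transporter Glut1. The group comprised 10 genes of the 22180 tested, namely the AMPK subunit genes Prkaa1, Prkaa2, Prkab1, Prkab2, Prkag1 and Prkag2, the LKB1 gene Stk11, and Nuak1, Nuak2 and Sik1. They were chosen by name, and each was represented by the array row annotated with that gene alone. All 10 had exactly 1 such row.

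AMPK is a heterotrimer of a catalytic alpha, a scaffolding beta and a nucleotide-binding gamma subunit. It is switched on when AMP and ADP rise relative to ATP and when LKB1 phosphorylates the activation loop of the alpha subunit, and glucose shortage is a classical trigger. LKB1 phosphorylates the corresponding site of the AMPK-related kinases, among them the NUAK kinases, which act on myosin phosphatase, cell adhesion and polarity, and the salt-inducible kinases (SIK), which hold CRTC coactivators and class IIa histone deacetylases in the cytoplasm. Arrays report transcripts, so neither phosphorylation nor kinase activity was measured.

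The keratinocytes, the epithelial cells of the epidermis, came from C57BL/6J mice aged 1 week. WT mice carried floxed Glut1 alleles (Glut1 fl/fl) without Cre, and Glut1-deficient mice carried the same floxed alleles and Cre under the keratin 14 promoter (K14 Cre), which is active in basal keratinocytes. There were 4 mice per genotype, and both genotypes were grown in keratinocyte medium with EGF, insulin, hydrocortisone and pituitary extract. Cells were replated at equal number after 3 days and collected 1 day later, but 1500000 cells were lysed per WT sample and 1000000 per Glut1-deficient sample, a difference that cannot be told apart from genotype. Each array held the pooled RNA of 2 plates of 1 genotype, which left 2 arrays per genotype, called WT 1, WT 2, Glut1-deficient 1 and Glut1-deficient 2.

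Values are log2 intensities after RMA, a normalization that equalizes the overall distribution of the arrays, so every difference is relative to the other genes. A log2 fold change is the Glut1-deficient mean minus the WT mean, and a gene is said to have risen or fallen when limma's Benjamini-Hochberg adjusted p over all 22180 genes was under 0.05. The number of arrays limits the precision. For Slc2a1, the gene of Glut1, the brighter of the pair of rows read 11.13 and 11.05 on the WT arrays and 11.01 and 11.01 on the Glut1-deficient arrays (difference -0.075, limma adjusted p = 0.675). Its dimmer row read 5.18 and 5.09 against 4.80 and 4.44. Where the probes lie relative to the deleted exons is not given in the sources used here, so neither row checks the genotype labels. Among keratinocyte markers, Krt14 read 12.56 and 12.54 on the WT arrays and 12.15 and 12.21 on the Glut1-deficient arrays. The other bright markers, Perp and Dsp, had log2 fold changes of 0.30 and 0.01. Of 9 tested markers 0 passed (limma, 5 at unadjusted p under 0.05, against 22.2% of all genes, dim ones included). Their log2 fold changes were above 0 for 3 and below 0 for 6 (median -0.18), the lowest being Col17a1 at -0.73 and Itgb4 at -0.57. Krt1 and Krt10, keratins of differentiated layers, read between 3.21 and 5.04 on all 4 arrays.

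Markers of other cells differed between the same arrays. All 10 fibroblast markers had positive log2 fold changes (median 1.04), although 0 passed. At unadjusted p under 0.05 there were 8 of them, against 22.2% of all genes, dim ones included (limma). Their summed linear intensity was 595 to 701 on the WT arrays and 1368 to 2546 on the Glut1-deficient arrays. Vim read 8.38 and 8.07 against 10.40 and 9.44, Pdgfra 5.97 and 5.84 against 8.64 and 7.47, and Dcn 5.65 and 5.52 against 8.18 and 7.01, each higher on Glut1-deficient 1 than on Glut1-deficient 2. Of 8 melanocyte markers, 4 rose (Dct, Mlana, Pmel and Tyrp1), against 1.79% of all genes (limma). The summed intensity of the 8 was 378 to 471 against 963 to 1029. In the endothelial list Kdr rose and the other 4 genes did not pass. None of the tested markers of immune cells (6), skeletal muscle (7), adipocytes (4) or Schwann cells (2) passed in limma, with 2, 0, 1 and 1 of them at unadjusted p under 0.05. More cells of a type and more RNA per cell cannot be told apart in pooled cultures.

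Among the 10 kinase genes, Nuak1 fell, 0 rose and 9 did not pass (limma, adjusted p under 0.05). Over all genes tested 2.84% passed, 1.79% as rises and 1.05% as falls. At unadjusted p under 0.05 there were 6 of the 10 genes, against 22.2% of all genes, dim ones included. All 10 lay above the median level. In limma on the genes above it, 7 of the 10 and 4316 of 11090 genes were at unadjusted p under 0.05. Arrays of the genotypes did not overlap for 8 of the 10, against 53.2% of all genes, dim ones included. The Glut1-deficient arrays were the higher ones for 2 of the 10 (25.5% of all genes) and the lower ones for 6 (27.7%). Shares without overlap among genes above the median level were not computed. The median log2 fold change of the 10 was -0.15, beside -0.007 for all genes. In a fit whose prior variance followed the intensity, 5 of the 10 passed (limma with an intensity trend, 12.0% of all genes), and among genes above the median level 4 of the 10 did (limma, 21.0% of those genes). With a plain pooled variance 0 of the 10 and 0 of all genes passed, and with all rows tested in limma 0 and 0. With the replicate number as a block 0 of the 10 and 37 of all genes passed in limma. At unadjusted p under 0.05 these settings had 3, 4 and 4 of the 10, beside 3646 genes, 6694 rows and 4335 genes. Where 0 of all genes pass, 0 of the 10 says nothing particular to them.

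**Figure D1:**
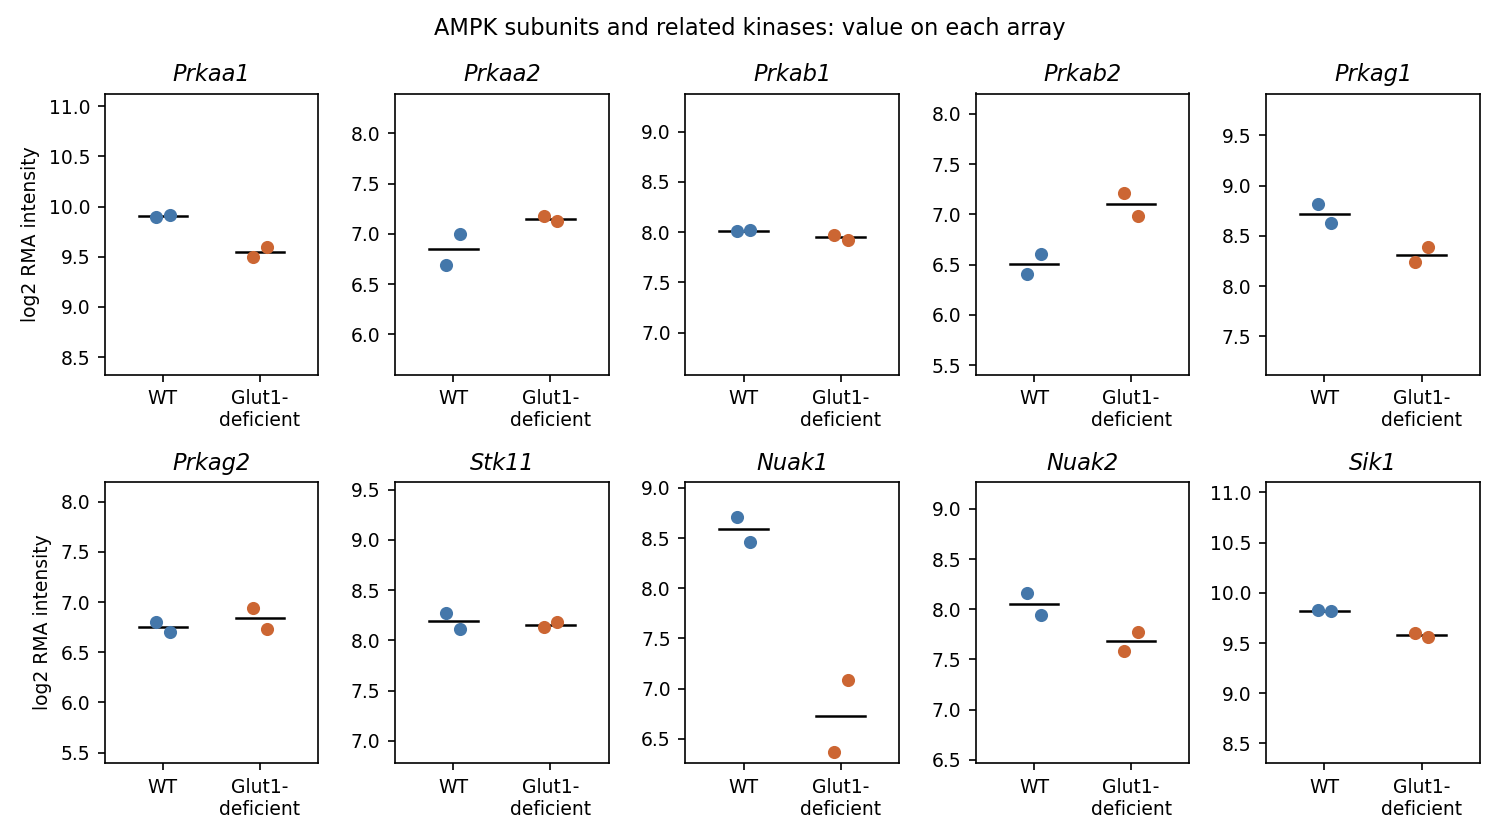
Each panel plots 1 gene, with log2 RMA intensity on the vertical axis (the same span in every panel), WT arrays in blue, Glut1-deficient arrays in orange and the genotype mean as a bar. Nuak1 has the widest gap, from at least 8.46 on the WT arrays to at most 7.09 on the Glut1-deficient arrays, while Prkag2 and Stk11 overlap.

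Nuak1, an AMPK-related kinase with roles in cell adhesion and polarity, showed the largest difference of the 10 genes. It read 8.71 on WT 1, 8.46 on WT 2, 6.37 on Glut1-deficient 1 and 7.09 on Glut1-deficient 2. Both Glut1-deficient arrays thus lay below both WT arrays, with a gap of 1.37 between the nearest arrays, and the Glut1-deficient arrays also lay 0.71 apart. The WT mean was 8.59 ± 0.18 and the Glut1-deficient mean 6.73 ± 0.50 (SD over 2 arrays each), which differ by -1.86 on the log2 scale (SE 0.25, 95% interval -2.51 to -1.20), or 3.62-fold lower (limma adjusted p = 0.0399). By size alone this was the 12th most negative value of the 22180 genes. The call was not kept in 3 of the 10 other settings that used all 4 arrays. With a plain pooled variance the adjusted p was 0.287, and with all rows tested in limma it was 0.128. In both of these settings 0 of all genes or rows passed. With the replicate number as a block the limma adjusted p was 0.0898, and 37 genes passed. Leaving out any 1 array leaves 1 array in a genotype, and the log2 fold change then ranged from -2.21 to -1.50. The lower value of Nuak1 was on Glut1-deficient 1, the array with the higher fibroblast marker sum (2546), and the part of such cells in the Nuak1 value was not tested.

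Nuak2, the paralogue of Nuak1, encodes a stress- and YAP-responsive kinase that also acts on myosin phosphatase. It read 8.16 and 7.94 on the WT arrays and 7.59 and 7.78 on the Glut1-deficient arrays. The Glut1-deficient arrays lay below the WT arrays, but by 0.16 between the nearest of them, and the gene did not pass (log2 fold change -0.37, SE 0.12, 95% interval -0.69 to -0.05; limma adjusted p = 0.182). The within-array difference of Nuak2 minus Nuak1 went from -0.55 and -0.52 on the WT arrays to 1.22 and 0.69 on the Glut1-deficient arrays, a shift of 1.49 on the log2 scale. The genotypes were fully separated in this difference, for which 2 against 2 arrays allow no two-sided exact permutation p below 0.333, the value obtained.

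Sik1, a salt-inducible kinase whose own transcription is a known CREB target, read 9.83 and 9.82 on the WT arrays and 9.60 and 9.56 on the Glut1-deficient arrays. Replicates lay within 0.04 of each other and the genotypes did not overlap, yet the difference was small, at -0.24 (SE 0.084, 95% interval -0.46 to -0.02; limma adjusted p = 0.191). It passed with an intensity trend (limma adjusted p = 0.0251) but not among genes above the median level (0.0608), and the adjusted p ran up to 0.471 over the alternatives.

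**Figure D2:**
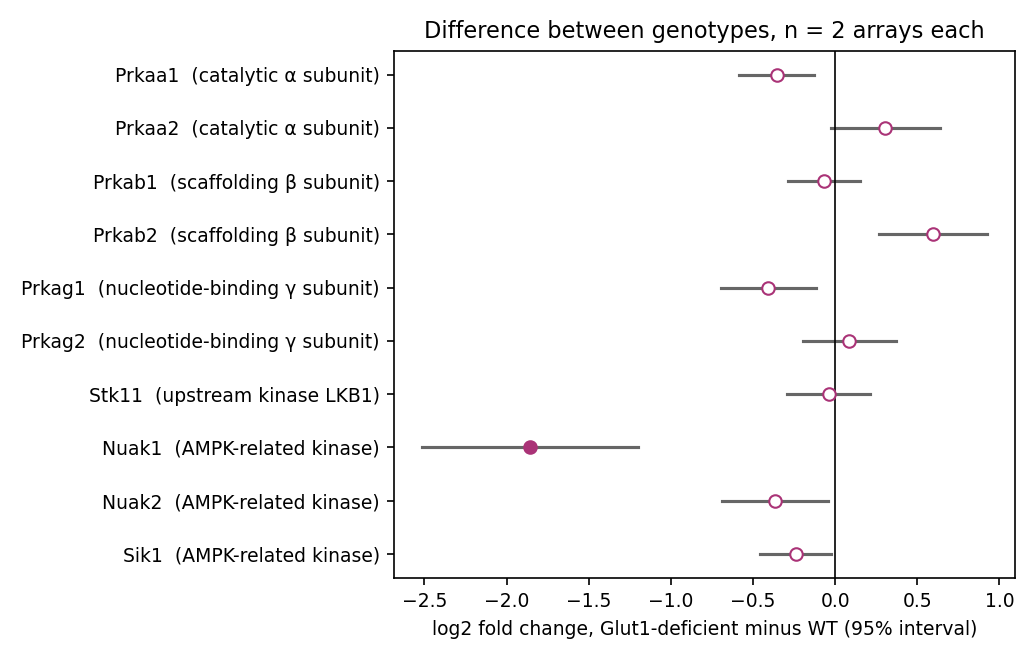
The horizontal axis is the log2 fold change, Glut1-deficient minus WT, of each of the 10 genes, with limma's 95% interval as a line and a filled point for the gene that passed over all genes. Nuak1 lies at -1.86, and the other 9 lie between -0.41 (Prkag1) and 0.59 (Prkab2).

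Of the 6 AMPK subunit genes, 0 passed (limma, 3 at unadjusted p under 0.05, against 22.2% of all genes, dim ones included). The values of the paralogues of each subunit differed in sign (that of Prkag2 turned to -0.016 without Glut1-deficient 1). Prkaa1 encodes the alpha1 catalytic subunit, the usual one in epithelial cells. It read 9.89 and 9.91 on the WT arrays and 9.50 and 9.60 on the Glut1-deficient arrays, which lay lower by at least 0.30. Its log2 fold change was -0.36 (SE 0.088, 95% interval -0.58 to -0.13; limma adjusted p = 0.108). Prkaa2 encodes alpha2, the catalytic subunit best known from skeletal muscle and heart. It read 6.69 and 7.00 against 7.18 and 7.12, so the Glut1-deficient arrays lay above the WT arrays, by a gap smaller than the spread between the WT arrays. Its log2 fold change was 0.31 (95% interval -0.02 to 0.64; limma adjusted p = 0.255), or 0.15 without WT 1 and 0.46 without WT 2. The skeletal muscle markers had a median log2 fold change of -0.12 on these arrays, and a part of muscle cells in the Prkaa2 value was not tested.

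The beta subunits hold the complex together and carry a glycogen-binding module. Prkab1 (beta1) read 8.01 and 8.02 on the WT arrays and 7.97 and 7.92 on the Glut1-deficient arrays. Its log2 fold change of -0.07 had a 95% interval of -0.28 to 0.15, and limma's adjusted p was 0.701. Prkab2 (beta2) read 6.41 and 6.60 against 7.22 and 6.98. It had the highest log2 fold change of the 10 genes, 0.59 (SE 0.13, 95% interval 0.26 to 0.92), with both Glut1-deficient arrays above both WT arrays (limma adjusted p = 0.0852).

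The gamma subunits bind the adenine nucleotides that report energy state. Prkag1 (gamma1), the common form, read 8.81 and 8.63 on the WT arrays and 8.24 and 8.39 on the Glut1-deficient arrays. The genotypes did not overlap, and the log2 fold change was -0.41 (SE 0.11, 95% interval -0.70 to -0.12; limma adjusted p = 0.129). Prkag2 (gamma2) read 6.81 and 6.70 against 6.94 and 6.74, with overlapping genotypes and a log2 fold change of 0.09 (95% interval -0.20 to 0.37). A dimmer row annotated with both Prkag2 and the antisense gene Prkag2os1 read 3.20 and 3.27 against 2.65 and 3.27. It belongs to no single gene and was not used.

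Prkaa1, Prkag1 and Prkab2 did pass in limma with an intensity trend (adjusted p = 0.00875, 0.0270 and 0.0200) and among genes above the median level (adjusted p = 0.0312, 0.0476 and 0.0298). They lay further from the threshold with a plain pooled variance (adjusted p = 0.246, 0.345 and 0.322) and with all rows tested in limma (adjusted p = 0.229, 0.250 and 0.196). Within arrays, each second paralogue stood higher relative to the first in the Glut1-deficient cells. The shift was 0.66 for Prkaa2 minus Prkaa1, 0.66 for Prkab2 minus Prkab1 and 0.49 for Prkag2 minus Prkag1. The difference Prkaa2 minus Prkaa1 was -3.20 and -2.92 on the WT arrays and -2.32 and -2.47 on the Glut1-deficient arrays. For Prkab2 minus Prkab1 the values were -1.60 and -1.42 against -0.75 and -0.94, and for Prkag2 minus Prkag1 they were -2.01 and -1.93 against -1.30 and -1.65. No pair overlapped between genotypes, but 53.2% of single genes did not overlap either, and no share over all pairs was computed. Each pair reached the exact permutation p of 0.333 that is the smallest for this design. These shifts were computed after the values of the single genes were seen, and they compare changes, since intensities of different probes give no order of abundance.

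Stk11 encodes LKB1, which activates AMPK and the related kinases. It read 8.28 and 8.12 on the WT arrays and 8.13 and 8.19 on the Glut1-deficient arrays, which overlapped. The log2 fold change was -0.04 (95% interval -0.29 to 0.21; limma adjusted p = 0.862), and it changed sign without WT 1 (0.04).

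Genes whose values over the 4 arrays were nearest to those of Nuak1 were sought by Euclidean distance, after each gene was centred on its own mean, among 17730 genes without predicted genes, olfactory receptors and small RNAs. The nearest was Tgfbi, an extracellular matrix protein induced by TGF-beta (distance 0.031). Tgfbi read 8.89 and 8.64 on the WT arrays and 6.59 and 7.27 on the Glut1-deficient arrays. Next came Thbs1, which encodes the matrix protein thrombospondin-1 (distance 0.142; 12.07 and 12.01 against 9.85 and 10.59), and Fat2, an atypical cadherin of epidermis (distance 0.212; 7.72 and 7.56 against 5.23 and 5.94). In all 3 genes, as in Nuak1, Glut1-deficient 1 was the lowest array. All fell, with log2 fold changes of -1.83 for Tgfbi, -1.82 for Thbs1 and -2.06 for Fat2 (limma adjusted p = 0.0390, 0.0401 and 0.0318). With 4 arrays in 2 groups, nearness reflects mostly the size of the genotype difference. The shared lowest array and the falls follow from choosing these genes by their nearness to Nuak1.

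**Figure D3:**
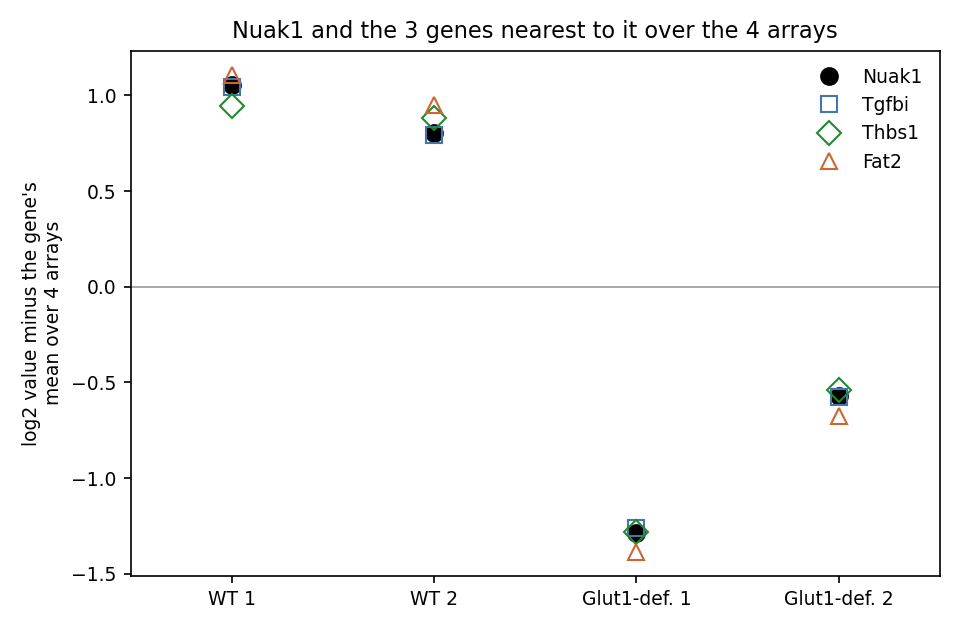
The vertical axis is the log2 value minus the gene's mean over the 4 arrays, which stand along the horizontal axis, for Nuak1 (filled) and the 3 genes nearest to it (open). The 4 genes nearly coincide on every array, with Tgfbi at a distance of 0.031 from Nuak1.

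The promoter of Nuak1 is shown beside those of Tgfbi and Fat2, since their transcripts differed alike between genotypes. That of Thbs1 was not analysed here. The sequences are the 250 bases before the annotated start, on the strand of the gene, from RefSeq's annotation of GRCm38.p6, and capitals mark a match to a searched motif. They lie at chr10:84440669-84440918 on the minus strand for Nuak1, chr13:56609336-56609585 on the plus strand for Tgfbi and chr11:55312258-55312507 on the minus strand for Fat2.
Nuak1: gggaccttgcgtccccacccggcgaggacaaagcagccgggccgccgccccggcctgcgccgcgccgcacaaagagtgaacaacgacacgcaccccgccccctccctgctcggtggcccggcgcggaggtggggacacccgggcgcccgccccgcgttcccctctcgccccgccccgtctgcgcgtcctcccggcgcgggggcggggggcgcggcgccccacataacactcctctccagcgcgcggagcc
Tgfbi: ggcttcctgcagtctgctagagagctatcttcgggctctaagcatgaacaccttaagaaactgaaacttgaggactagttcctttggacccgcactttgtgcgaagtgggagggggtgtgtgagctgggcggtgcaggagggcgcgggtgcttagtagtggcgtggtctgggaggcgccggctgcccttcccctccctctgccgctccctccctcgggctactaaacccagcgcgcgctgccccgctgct
Fat2: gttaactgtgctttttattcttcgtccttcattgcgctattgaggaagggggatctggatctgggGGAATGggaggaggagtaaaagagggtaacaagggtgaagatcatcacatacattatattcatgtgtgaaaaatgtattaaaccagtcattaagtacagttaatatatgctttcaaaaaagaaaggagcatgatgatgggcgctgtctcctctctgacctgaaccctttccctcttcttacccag

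The Nuak1 window had 79.2% G and C and 38 CG dinucleotides, the Tgfbi window 62.4% and 15, and the Fat2 window 41.6% and 3, where the median of all 32851 promoter windows was 52.4% and 6. Motifs were searched on both strands. CATTCC, the core of the element bound by TEAD factors, was in the Fat2 window in its reverse form (in capitals above), with its first base 185 bases before the start, and in 12.6% of all windows. The cAMP response element TGACGTCA (1.55% of all windows), its core TGACG (17.8%), which lies within it, and the ATF4 and CHOP element TGATGNAAN (3.44%) had no match in these 3 windows. Promoters were found for 8 of the 10 kinase genes, in 10 windows because Prkag2 has 3. Those of Nuak2 and Sik1 were not analysed here, so Sik1 was not searched for the cAMP response element. The core TGACG was present in the windows of Prkaa2, Prkag1 and Stk11, and CATTCC in 1 window of Prkag2. The letters say nothing about binding.

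The wider AMPK network was described by lists of named genes. The share of 22.2% given beside these lists includes dim genes. In limma on the genes above the median level, 4316 of 11090 were at unadjusted p under 0.05. Of 9 tested relatives of the family, 0 passed (limma, 5 at unadjusted p under 0.05, against 22.2% of all genes), with a median log2 fold change of -0.12 beside -0.007 for all genes. Melk, a mitotic kinase of the family that does not depend on LKB1, read 8.39 and 8.11 on the WT arrays and 7.19 and 7.62 on the Glut1-deficient arrays (log2 fold change -0.84, limma adjusted p = 0.0872). Mark1, a microtubule-affinity regulating kinase, was at -0.37 (limma adjusted p = 0.114). The remaining relatives, among them Sik2, Sik3 and Mark2 to Mark4, lay between -0.27 and 0.27. The partners of LKB1 (Strada, Stradb, Cab39 and Cab39l) and the other AMPK kinases Camkk2 and Map3k7 had a median of -0.11 and the narrowest range of the pathway lists. All 6 lay between -0.14 and -0.05 and 0 passed (limma, 0 at unadjusted p under 0.05), with Cab39l at -0.14 and Map3k7 at -0.12.

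Regulators of AMPK had a median log2 fold change of 0.27. Of the 10, 8 were at unadjusted p under 0.05 (22.2% of all genes, dim ones included) although 0 passed (limma). Above the median level lay 9 of the 10. Fnip1, a folliculin-interacting protein that binds AMPK, read 7.41 and 7.38 on the WT arrays and 7.88 and 7.94 on the Glut1-deficient arrays (log2 fold change 0.52, limma adjusted p = 0.0538). Sesn2, a stress-induced sestrin that promotes AMPK signalling and is a target of ATF4, read 7.79 and 7.61 against 8.55 and 8.33 (0.74, limma adjusted p = 0.0549). Other members went the opposite way. Sesn1, a p53-responsive sestrin, was at -0.54 and Sesn3, a FoxO-responsive one, at -0.36 (limma adjusted p = 0.0697 and 0.108). Both were named after their values were seen. With an intensity trend, 5 of the 10 regulators rose and 2 fell (limma, 12.0% of all genes called).

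Transcripts of AMPK substrates did not share a direction. The test was passed by 1 of the 19, a fall (limma, 1.05% of all genes fell), and missed by 18. At unadjusted p under 0.05 there were 9 of the 19 (limma, 22.2% of all genes). Values lay above 0 for 10 and below 0 for 9, with a median of 0.006. The one that fell was Txnip, an arrestin-related inhibitor of glucose uptake that AMPK marks for degradation, at 8.58 and 8.47 on the WT arrays and 5.92 and 6.48 on the Glut1-deficient arrays (log2 fold change -2.32, limma adjusted p = 0.0207). The others ranged up to 0.79 for Pfkfb3, a producer of the glycolytic activator fructose 2,6-bisphosphate, and down to -0.62 for Ulk1, the kinase that starts autophagy.

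Substrates of the SIK kinases and the cAMP arm that restrains them had a median of -0.05. Of the 12, 0 passed (limma, 3 at unadjusted p under 0.05, against 22.2% of all genes). Hdac4, a class IIa histone deacetylase, read 7.78 and 8.05 on the WT arrays and 8.59 and 8.60 on the Glut1-deficient arrays (0.68, limma adjusted p = 0.0606). Prkar2a, a regulatory subunit of protein kinase A, was at -0.33. Among 14 target genes of CREB and CRTC, 10 were above 0, with a median of 0.12. Of these 14, 0 passed (limma, 5 at unadjusted p under 0.05, against 22.2% of all genes). The nuclear receptor gene Nr4a2 read 5.55 and 5.25 against 6.14 and 6.12 (0.73, limma adjusted p = 0.0581), and the phosphatase gene Dusp1 was at 0.47. Sik1 itself, at -0.24, lay below 0, as did 4 of the 14 target genes. With an intensity trend 5 of these 14 target genes rose and 0 fell (limma, 12.0% of all genes called in either direction).

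Substrates of the NUAK kinases and the myosin phosphatase had a median of -0.07. Of the 11, 0 passed (limma, 2 at unadjusted p under 0.05, against 22.2% of all genes). Ppp1r12b, a myosin phosphatase targeting subunit, was at -0.40 and the myosin light chain gene Myl12b at -0.37 (limma adjusted p = 0.0963 and 0.155), while Ppp1r12a, which encodes the NUAK substrate MYPT1, was at 0.20. Of 20 YAP and TEAD target genes, 1 fell, 0 rose and 19 did not pass (limma, 6 at unadjusted p under 0.05, median -0.09). The one that fell was Igfbp3, a secreted carrier of insulin-like growth factors (10.57 and 10.51 against 8.06 and 8.98). Of 11 TGF-beta target genes, 2 fell, Tgfbi and Thbs1, 0 rose and 9 did not pass (limma, 7 at unadjusted p under 0.05, median -0.005). Over all genes, dim ones included, 1.05% fell and 22.2% were at unadjusted p under 0.05 (limma). Tgfbi and Thbs1 are also the genes found above to lie nearest to Nuak1. The lists were fixed with earlier results of these data known. With an intensity trend 2 of the 20 YAP and TEAD targets rose and 4 fell, and 2 of the 11 TGF-beta targets rose and 5 fell (limma, 12.0% of all genes called). The median of the TGF-beta list hid values from -1.83 (Tgfbi) to 0.99 (Col1a1, which is also a fibroblast marker).

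**Figure D4:**
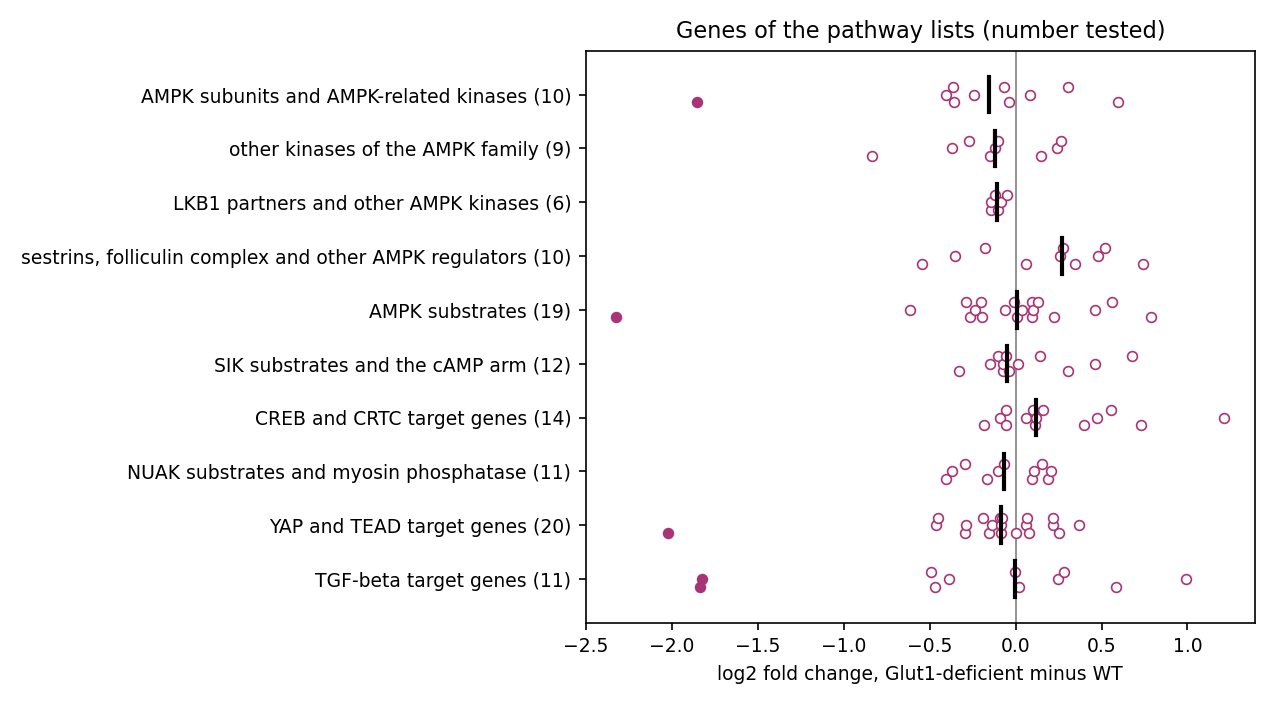
Each point is a tested gene placed by its log2 fold change (horizontal axis, Glut1-deficient minus WT), grouped by list, filled where limma's adjusted p over all genes was under 0.05, with the list median as a black bar. List medians lie between -0.15 and 0.27, and Nuak1, Txnip, Igfbp3, Tgfbi and Thbs1 are the filled points, all on the left.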

How the data were processed

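RNA of cultured keratinocytes was hybridised to MoGene 2.0 arrays. The deposited table holds log2 intensities, 1 per transcript cluster. Per the submitters' processing notes, the authors used RMA in Affymetrix Expression Console. Versions, settings and genome build: not given in the sources used here. Of 41345 rows, 23521 had 1 gene symbol, 1814 several and 16010 none in the platform annotation. The brightest row stood for each of 22180 genes. Genotypes were compared in R 4.3.3 by limma 3.58.1 (moderated linear model without intensity trend, two-sided, 2 residual and 2.95 prior degrees of freedom), checked on simulated data. Arrays pool 2 plates, and whether pools share mice is not given, and p-values therefore reflect only how far the pools vary. A genotype's plates may share a batch, which cannot be told apart from genotype.

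The genes and lists were chosen with earlier results of these data known. Named are the 10 kinase genes, up to 4 called genes per pathway list (otherwise the 2 with the smallest p), up to 3 bright markers per cell type and the 3 genes nearest to Nuak1; others are given as examples of range or sign, after their values were seen. Some list genes had no value here. Alternatives concerned the variance model, normalization, dim genes, several rows, the replicate number as a block and each array left out. Figures were drawn with matplotlib 3.10.9.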

Additional observations from a re-analysis of the deposited data

How the results depend on the processing

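The count of changed genes (630) and of changed kinase genes (1, Nuak1) depended on the variance model and on which genes were tested. With an intensity trend 2671 genes and 5 of the 10 kinase genes passed, and with robust estimation 2729 and 5. Among the 11090 genes above the median level 2327 and 4 passed. With a plain pooled variance 0 and 0 passed (3646 genes and 3 kinase genes at unadjusted p under 0.05), and with all 41345 rows tested in limma 0 and 0 (6694 rows and 4 kinase genes at unadjusted p under 0.05). With any 1 array left out, 0 genes and 0 kinase genes passed in limma, where 1 residual degree of freedom was left (2948 to 4627 genes at unadjusted p under 0.05). With the replicate number as a block, 37 genes and 0 kinase genes passed in limma (4335 and 4 at unadjusted p under 0.05), and Nuak1 was at an adjusted p of 0.0898. The numbers were not taken as pairs. Deviations of WT 1 and Glut1-deficient 1 from their genotype means correlated at -0.0251 over genes. A correlation over all genes does not settle pairing for single genes, and the Nuak1 call depended on this choice. Over 14 alternatives the log2 fold change of Nuak1 stayed between -2.21 and -1.50, with limma or plain adjusted p from 0.00274 to 0.287. Of 140 values of kinase genes under alternatives 120 kept their direction and side of the threshold, 11 newly passed, 7 (all Nuak1) no longer passed and 2 changed sign. These were Stk11, which ran from -0.12 to 0.040 with 1 array left out (positive without WT 1), and Prkag2, which ran from -0.016 (without Glut1-deficient 1) to 0.19. Neither passed. Of 126 list medians 21 moved by more than the spread between arrays, and that of the CREB and CRTC targets was 0.47 among genes above the median level, where fewer of its genes were tested. The median of the AMPK substrates was -0.05 without Glut1-deficient 2, that of the NUAK substrates 0.007 with the mean of a gene's rows, and that of the TGF-beta targets between -0.20 and 0.03.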
